A study of Mus musculus with 14 samples.

Results

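The Ly6 family genes described here are Ly6e, Ly6a, Ly6d, Ly6c1, Ly6c2, Ly6k, Ly6g6c, Lynx1, Lypd3 and Slurp1, 10 of the 47729 genes in the RNA-seq count files, found there by symbol. They were selected on RNA fold changes in earlier results of these data, among them the age differences in hair follicle stem cells, so values in that comparison and in the difference between both age effects are given as a description without a test. All 10 had rows in the RNA-seq files, and 8 passed the filter on low counts. Ly6c2 and Ly6k did not.

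The samples came from the back skin of female mice aged 2 months (young) or 24 months (aged), untreated and without any engineered allele named in the labels, which give the strain as C57B8 in one field and C57B6 in another. Hair follicle stem cells (HFSC) were sorted as CD34-positive and Sca1-negative, epidermal stem cells (EpdSC) as CD34-negative and Sca1-positive, both from the lineage-negative fraction with high integrin alpha 6. Each population and age had 2 RNA-seq libraries and 1 ATAC-seq library, an assay that counts transposase insertions in open chromatin. Lineage-negative, integrin alpha 6-positive cells of each age gave 1 10x single-cell library. The labels do not say whether replicate libraries came from separate animals or pools, so each p-value reflects spread among these libraries alone, and that spread may be technical.

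Ly6 proteins share a small fold of finger-like loops held by disulfide bonds. Most are tied to the outer face of the cell membrane by a glycolipid anchor, and a few are secreted. Several mark stem, progenitor or immune cells in cell sorting, and others bind nicotinic acetylcholine receptors, which keratinocytes also carry. By RefSeq coordinates on GRCm38.p6, the assembly of mm10, 8 of the 10 genes lie on chromosome 15, from Slurp1 (74726644 to 74728023) through Lynx1, Ly6d (74762056 to 74763567), Ly6k, Ly6e (74955025 to 74959904), Ly6a (74994877 to 74998031) and Ly6c1 to Ly6c2 (75108161 to 75112066). Ly6g6c lies on chromosome 17 (35067325 to 35070048) and Lypd3 on chromosome 7 (24636570 to 24641118).

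RNA-seq libraries held 25126808 to 35905505 counts. CPM are read counts scaled to the size and composition of each library. Cd34 was at 1088 to 1807 CPM in the 4 HFSC libraries and at 0.340 to 1.81 CPM in the 4 EpdSC libraries, as the sort gates set. Within HFSC, Cd34 was at 1807 and 1715 CPM in young and at 1088 and 1194 CPM in aged libraries, without overlap. The part of this difference in the HFSC age differences of the members was not tested. In ATAC-seq the aged HFSC library stood apart, with 8243922 counts against 22934060 to 37325365 in the other 3 and 10.8% of counts in promoters against 19.3% to 21.4%. In 10x, 4035 young and 4468 aged cells were kept, at median depths of 3919 and 2271 UMIs (counts of unique molecules), and 33 barcodes occurred in both libraries. The doublet caller marked 0.0743% and 0.0224% of cells, too few to have worked, so doublets were in effect not removed.

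Ly6e encodes a membrane-anchored protein that interferons induce and that blocks the entry of some viruses. Its RNA level (ENSMUSG00000022587.14) was 9.35 and 8.81 CPM in the 2 young HFSC libraries and 62.5 and 91.9 CPM in the aged ones. In EpdSC it was 100.4 and 81.3 CPM in young and 122 and 116 CPM in aged libraries. Both aged HFSC libraries thus stood above both young ones, and the higher of them lay within the range of young EpdSC. The mean HFSC level was 10.0% of the EpdSC level at 2 months and 64.8% at 24 months. Aged against young HFSC gave a log2 fold change of 3.09 (SE 0.207), an 8.49-fold higher level. In bulk libraries, a larger share of cells with the RNA and more RNA per cell cannot be told apart.

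Ly6d encodes a membrane-anchored protein of keratinocytes, also used to stage lymphoid progenitors. In HFSC its level (ENSMUSG00000034634.7) was 7.29 and 14.4 CPM in young and 39.5 and 54.8 CPM in aged libraries. In EpdSC it was 687 and 574 CPM in young and 838 and 901 CPM in aged libraries. The age groups did not overlap in either population. The HFSC age difference was a log2 fold change of 2.12 (SE 0.276), and the aged HFSC mean still stood at 5.42% of the aged EpdSC mean, from 1.72% at 2 months. The aged mean minus the young mean in HFSC, 36.3 CPM, equals 4.17% of the aged EpdSC level, while for Ly6e the corresponding figure is 57.2%.

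Ly6g6c (ENSMUSG00000092586.8), a family gene of the major histocompatibility region, was at 3.13 and 2.87 CPM in young HFSC and at 9.86 and 10.3 CPM in aged HFSC. EpdSC libraries held 26.2 and 23.4 CPM in young and 27.9 and 23.8 CPM in aged mice. HFSC replicates lay close together, and the log2 age difference there was 1.75 (SE 0.205). HFSC reached 12.1% of the EpdSC level at 2 months and 39.1% at 24 months.

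Ly6a (ENSMUSG00000075602.10) encodes Sca1, the surface protein that the sort gates used, so its difference between the populations is set by the gates. HFSC libraries held 12 and 16 counts (0.399 and 0.629 CPM) in young and 45 and 60 counts (1.51 and 1.97 CPM) in aged mice. EpdSC libraries held 218 and 133 CPM in young and 186 and 138 CPM in aged mice. The aged HFSC libraries were above the young ones by a log2 fold change of 1.77 (SE 0.405), which edgeR did not call, and the aged HFSC mean was 1.07% of the aged EpdSC mean. DESeq2 called the same difference, but the selection used this comparison, so nothing is read from either result.

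Ly6c1 (ENSMUSG00000079018.10) and Ly6c2 (ENSMUSG00000022584.14) are close copies that encode the Ly6C surface proteins of monocytes and endothelium. Reads of close copies such as Ly6c1, Ly6c2 and Ly6a can be split between genes by the authors' counting, so their levels are uncertain. Ly6c1 was at 21.8 and 11.3 CPM in young EpdSC, at 19.4 and 11.2 CPM in aged EpdSC and at 0.0393 to 0.362 CPM in the 4 HFSC libraries. Ly6c2 had 0 to 6 counts in any library, 24 counts in all. Within each EpdSC age, replicate 1 held more Ly6c1 and more Ly6a than replicate 2. Endothelial markers summed to 2.56 to 7.38 CPM and monocyte and macrophage markers to 2.43 to 5.76 CPM over the 8 libraries, with 8 of 8 listed genes in the file for each set. Emcn was at 0 in 3 of the 8 libraries, Tie1 and Cldn5 in 2 each, Lyz2 in 6 and C1qa in 3. The ranges of both sums overlapped between HFSC and EpdSC libraries. T cell markers summed to 8.65 to 12.7 CPM in HFSC and 54.4 to 96.0 CPM in EpdSC. Thy1 made up most of the EpdSC sums, at 42.1 to 84.9 CPM, and 6 of the 8 markers were under 1 CPM in all libraries. The part of such cells in the Ly6c1 levels was not tested.

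The sequences upstream of Ly6c1 and Ly6c2 are shown because the pair is alike in letters while only Ly6c1 had RNA above a few counts. Each stretch ends at the outermost transcript start in the RefSeq table and is written 5′ to 3′ on the gene's strand. Capitals mark bases that differ between the pair or have no partner in their alignment, in which 99 of 134 aligned bases (73.9%) were identical.
Ly6c1 (chr15:75048921-75049087, minus strand): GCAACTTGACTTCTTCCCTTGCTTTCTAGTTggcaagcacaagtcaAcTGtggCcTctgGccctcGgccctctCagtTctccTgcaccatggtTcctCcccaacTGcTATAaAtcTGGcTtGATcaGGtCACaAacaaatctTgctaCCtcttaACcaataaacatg
Ly6c2 (chr15:75112067-75112221, minus strand): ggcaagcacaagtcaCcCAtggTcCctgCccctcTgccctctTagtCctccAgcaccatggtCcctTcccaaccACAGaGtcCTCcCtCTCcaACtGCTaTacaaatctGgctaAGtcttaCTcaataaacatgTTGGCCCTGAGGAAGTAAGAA

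The 250 bases upstream of Ly6g6c are shown because, of the 3 members called with age in HFSC, it is the one in the RefSeq promoter table. No base is capitalised, since no motif searched was found.
Ly6g6c (chr17:35067075-35067324, plus strand): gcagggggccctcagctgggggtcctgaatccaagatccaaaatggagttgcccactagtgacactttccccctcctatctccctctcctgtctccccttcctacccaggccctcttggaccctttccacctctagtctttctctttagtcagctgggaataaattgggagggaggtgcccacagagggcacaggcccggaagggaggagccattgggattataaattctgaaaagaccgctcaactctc

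The RefSeq promoter table held 4 of the 10 members, Ly6c1, Ly6c2, Ly6g6c and Lypd3. Their 250 bases before the start were searched on both strands for the interferon-stimulated response element core, the gamma-activated site TTCNNNGAA and the AP-1 site TGANTCA. None of the 3 motifs matched in any of these windows. Over 32851 promoter windows of that length they matched in 2.98%, 7.02% and 6.75%.

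Lypd3 (ENSMUSG00000057454.5) encodes a relative of the urokinase receptor found in the upper living layers of the epidermis. Its replicates disagreed widely, with 125 and 21.5 CPM in young HFSC, 43.4 and 62.7 CPM in aged HFSC, 156 and 61.0 CPM in young EpdSC, and 118 and 154 CPM in aged EpdSC. The log2 age difference in HFSC was -0.46 (SE 0.606), and without young HFSC replicate 1 it became 1.28. No age direction can be read from these libraries.

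Lynx1 (ENSMUSG00000022594.14) encodes an anchored protein that binds nicotinic acetylcholine receptors. Its level was 5.59 and 3.34 CPM in young HFSC, 5.77 and 4.18 CPM in aged HFSC, 11.2 and 8.13 CPM in young EpdSC, and 11.6 and 10.8 CPM in aged EpdSC. Age groups overlapped in both populations, with log2 differences of 0.15 (SE 0.314) in HFSC and 0.21 (SE 0.303) in EpdSC.

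Slurp1 (ENSMUSG00000022596.3), which encodes a secreted ligand of nicotinic receptors made late in epidermal differentiation, had 2 to 18 counts per library. In HFSC it had 6 and 2 counts in young and 8 and 18 in aged libraries, a log2 difference of 1.59 (SE 1.23) without overlap. Ly6k (ENSMUSG00000044678.11), best known from testis and tumours, had 0 to 4 counts and was at 0 in 4 of the 8 libraries, where 3 counts would equal 0.0882 to 0.118 CPM. Ly6k did not pass the filter and was not tested.

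**Figure D1:**
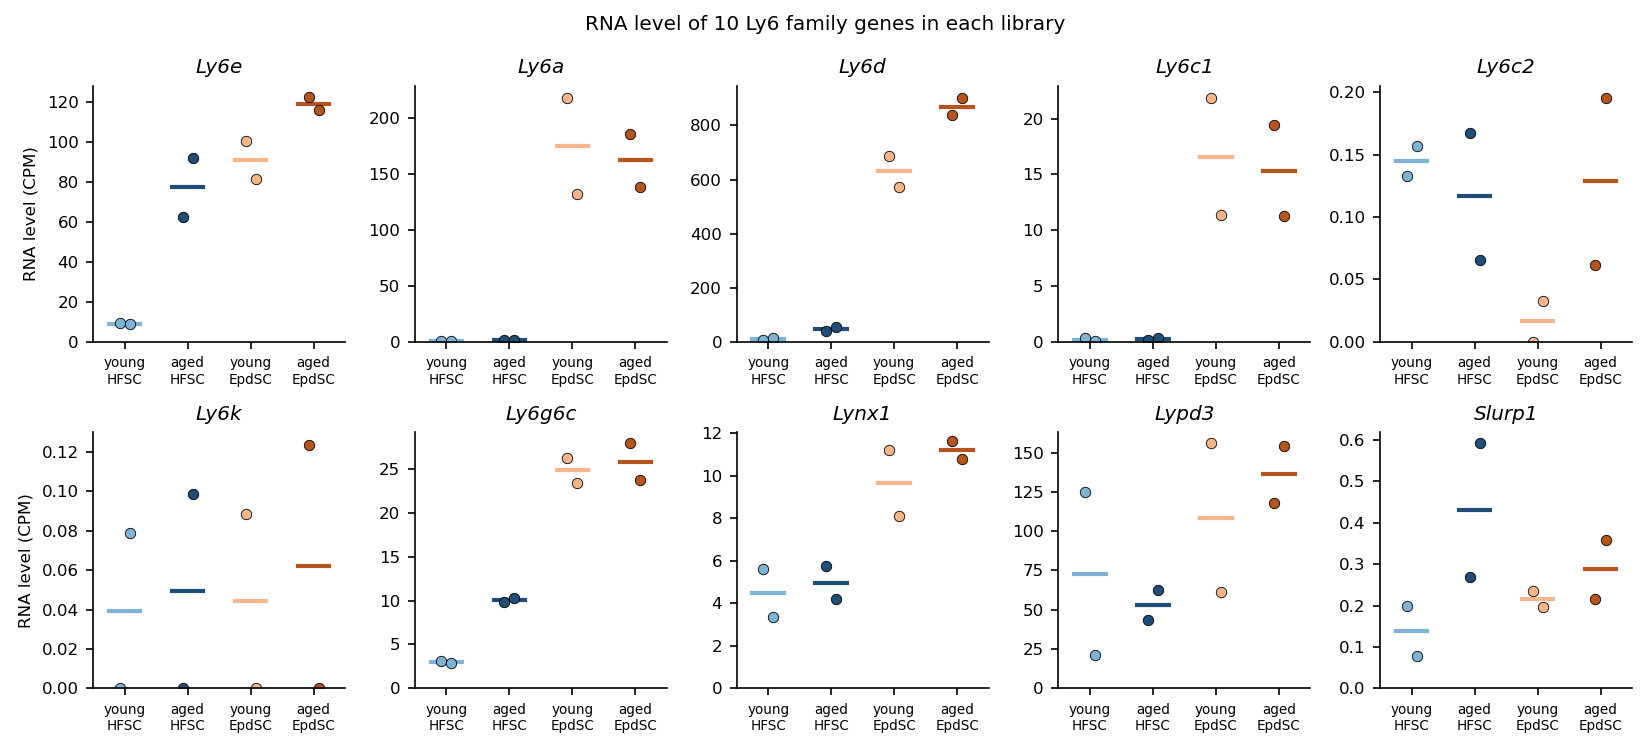
RNA level in CPM (vertical axis, from 0, a separate scale for each gene) of the 10 Ly6 family genes in the 2 libraries of each group (points), with the group mean as a bar. Ly6e, Ly6d and Ly6g6c stand higher in both aged HFSC libraries than in both young ones, while Ly6a and Ly6c1 are near 0 in HFSC at both ages.

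Of the 8 members that passed the filter, Ly6e, Ly6d and Ly6g6c were among the genes that edgeR called higher in aged than in young HFSC (adjusted p under 0.05), 3 of 8 beside 0.294% of all 21464 genes. In 5 of the 8 the aged libraries lay above the young ones without overlap, as for 18.0% of all genes. The members' median log2 difference was 1.67 against 0.016 over all genes. Members were selected on this comparison, so nothing is read from these counts. In a fit of the 4 HFSC libraries alone, Ly6d and Ly6g6c were not called.

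Age differences of the 8 members in EpdSC ran from -0.11 to 0.46 on the log2 scale, with a median of 0.27 against 0 over all genes. None of the 8 members was called by edgeR or DESeq2, and none had an unadjusted p under 0.05, beside 0.0839% of all genes called in either direction. The fitted log2 difference was 0.39 for Ly6e (SE 0.186) and 0.46 for Ly6d (SE 0.256), and edgeR's adjusted p = 1 for all 8 members. For Ly6e and Ly6d the aged libraries lay above the young ones without overlap, as for 17.1% of all genes. Suprabasal markers moved the same way in EpdSC, with sums of 3237 and 3099 CPM in young and 4285 and 4295 CPM in aged libraries, and 8 of 8 higher with a median log2 difference of 0.51. Of these 8, 3 had an unadjusted p under 0.05 and neither edgeR nor DESeq2 called any, and their part in the Ly6d and Ly6e values was not tested. Ly6a (-0.11, SE 0.232), Ly6c1 (-0.11, SE 0.421) and Ly6g6c (0.06, SE 0.185) were near 0, and overlapped between the ages.

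The age effect of Ly6e was 2.69 higher on the log2 scale in HFSC than in EpdSC (SE 0.273). This too is a value the selection used. Ly6e was 1 of 8 members called by edgeR there, beside 0.00466% of all genes, from which nothing is read, and the call was lost without aged EpdSC replicate 2. The differences of the age effects were 1.69 (SE 0.275) for Ly6g6c, 1.66 (SE 0.371) for Ly6d and 1.89 (SE 0.470) for Ly6a.

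Levels in EpdSC were tested against HFSC at each age, a comparison that shares its HFSC libraries with the age comparison above. Whether the selection of members also used this comparison is not known. The calls of members at both ages are therefore not independent support. At 2 months 6 of 8 members, Ly6a among them, were called higher in EpdSC, beside 13.0% of all genes. The edgeR log2 fold changes were 3.32 for Ly6e (SE 0.208, adjusted p = 3.78e-07), 5.86 for Ly6d (SE 0.319, adjusted p = 1.38e-07) and 3.05 for Ly6g6c (SE 0.209, adjusted p = 7.6e-07). They were 6.51 for Ly6c1 (SE 0.625, adjusted p = 1.17e-05) and 1.11 for Lynx1 (SE 0.312, adjusted p = 0.021). Ly6a, a gate gene, stood 8.42 higher (SE 0.360). Lypd3 (0.57, SE 0.604, adjusted p = 0.564) and Slurp1 (0.61, SE 1.24, adjusted p = 0.782) were not called by edgeR.

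At 24 months the same 6 members were called higher in EpdSC, beside 12.2% of all genes. The distance had a log2 fold change of 0.63 for Ly6e (SE 0.187, edgeR adjusted p = 0.03), 4.21 for Ly6d (SE 0.292, edgeR adjusted p = 9.97e-07) and 1.36 for Ly6g6c (SE 0.191, edgeR adjusted p = 0.000262). For Ly6c1 it was 5.83 (SE 0.588, edgeR adjusted p = 2.03e-05), for Lynx1 1.17 (SE 0.310, edgeR adjusted p = 0.0165), and for Ly6a 6.54 (SE 0.313). The Ly6e call was lost without aged HFSC replicate 1 (edgeR adjusted p = 0.242), aged EpdSC replicate 1 (0.129) or aged EpdSC replicate 2 (0.0653). The Lynx1 calls were lost at 2 months without young EpdSC replicate 1 (0.166) or young HFSC replicate 2 (0.152), and at 24 months without aged EpdSC replicate 1 (0.067) or aged HFSC replicate 2 (0.0901). Lypd3 (1.36, edgeR adjusted p = 0.143) gained a call at 24 months without young HFSC replicate 1 or replicate 2, and at 2 months without young HFSC replicate 1.

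**Figure D2:**
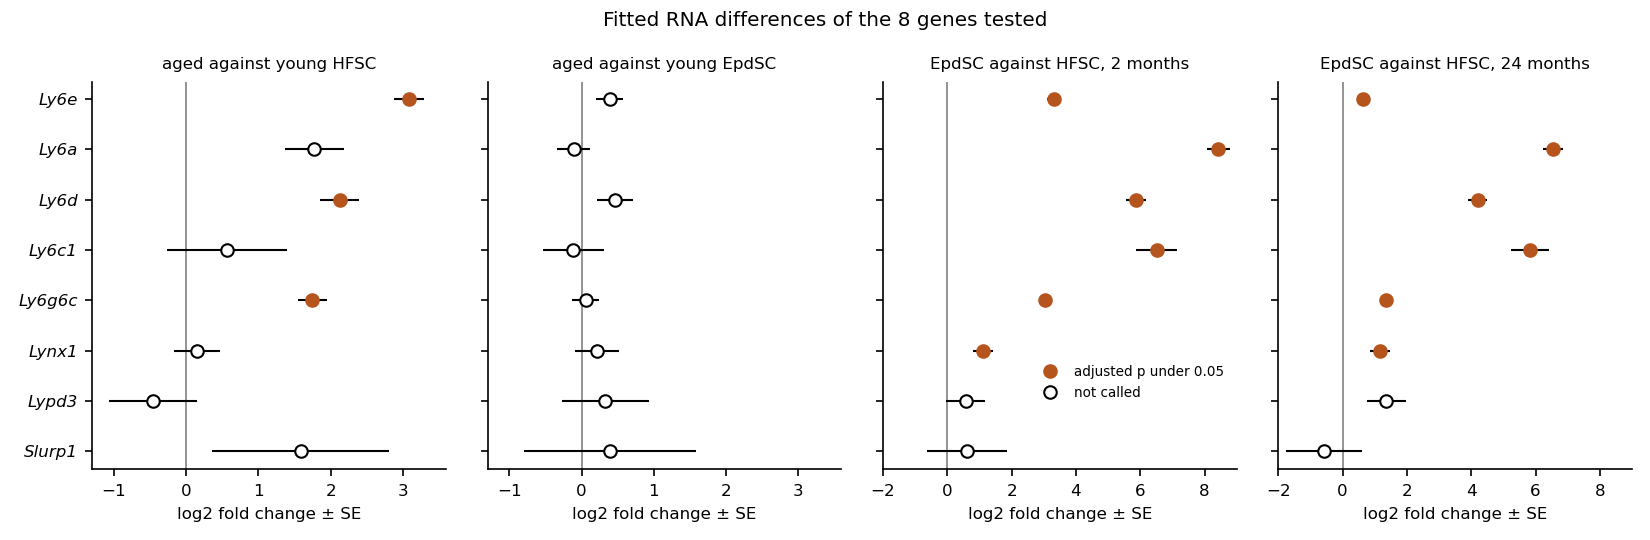
Log2 fold changes (horizontal axis) with their standard errors (bars) of the 8 members tested, in 4 comparisons of 2 against 2 libraries. Filled points had an edgeR adjusted p under 0.05. Ly6e lies at 3.09 in the HFSC age panel and at 0.39 in the EpdSC age panel, and its distance between the populations is 3.32 at 2 months and 0.63 at 24 months.

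Several Ly6 genes are also expressed outside the bulge, the follicle niche of HFSC, so markers of neighbouring cells were read in the same libraries. Markers of the bulge itself summed to 16890 and 19640 CPM in young and 17290 and 17870 CPM in aged HFSC. Of these 10 markers 2 were higher in aged HFSC, and neither edgeR nor DESeq2 called any. Suprabasal markers summed to 658 and 1017 CPM in young HFSC and 824 and 1165 CPM in aged HFSC. Of these 8 markers 6 were higher in aged HFSC, 6 had an unadjusted p under 0.05, edgeR called none and DESeq2 called 3, all higher. The summed levels overlapped between the ages. Krt1, a keratin of differentiating epidermis, was at 2.70 and 18.0 CPM in young and 60.6 and 76.8 CPM in aged libraries. Calml3 and Sbsn were not higher in aged HFSC. Calml3, the largest part of each HFSC sum, was at 472 and 718 CPM in young and 417 and 674 CPM in aged libraries. Sbsn was at 107 and 110 CPM in young and 91.6 and 108 CPM in aged libraries. Upper hair follicle markers summed to 1031 and 1255 CPM in young and 1302 and 2073 CPM in aged HFSC. All 8 were higher, 5 had an unadjusted p under 0.05, edgeR called none and DESeq2 called 1. Sebaceous markers summed to 379 and 427 CPM in young and 585 and 753 CPM in aged HFSC, where 8 of 9 were higher, edgeR called 1 and DESeq2 called 4, all higher. Melanocyte markers summed to 18.1 and 20.7 CPM in young and 33.1 and 34.4 CPM in aged HFSC, with 5 of 6 higher, 3 at an unadjusted p under 0.05 and none called by edgeR or DESeq2. The part of these cells in the HFSC differences of Ly6d, Ly6g6c and Ly6e was not tested in the bulk libraries.

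The rest of the family was read as a list. Of 29 other Ly6 and urokinase receptor family genes, 25 were in the file and 14 passed the filter. None was called with age in either population by edgeR or DESeq2, and in each population 1 had an unadjusted p under 0.05. Their median log2 age difference was 0.57 in HFSC, against 0.016 over all genes, and -0.063 in EpdSC. Ly6g6e, which lies near Ly6g6c on chromosome 17, was at 0.699 and 1.22 CPM in young and at 1.74 and 2.30 CPM in aged HFSC libraries. Its log2 age difference was 1.09 (SE 0.333, edgeR adjusted p = 0.29) and that of Pinlyp 0.85 (SE 0.568, edgeR adjusted p = 0.89). Cd59a, an inhibitor of complement, had an EpdSC age difference of -0.80 (SE 0.265, edgeR adjusted p = 0.879). At 2 months 2 were called higher and 1 lower in EpdSC, beside 13.0% and 13.1% of all genes. Those higher were Ly6g6e (3.73, SE 0.330, edgeR adjusted p = 6.08e-06) and Cd59a (1.55, SE 0.272, edgeR adjusted p = 0.00123). Lypd6, a nicotinic receptor and WNT modulator, was lower (-3.77, SE 0.612, edgeR adjusted p = 0.000692), at 0.765 and 1.88 CPM against 6.66 and 29.2 CPM in HFSC. At 24 months Ly6g6e (3.00, SE 0.307) was higher and Lypd6 (-4.19, SE 0.619) lower.

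Nicotinic acetylcholine receptor subunits are the binding partners of Lynx1 and Slurp1. Of 16 subunit genes 13 passed the filter and none was called with age in either population by edgeR or DESeq2. In EpdSC 1 had an unadjusted p under 0.05 (Chrna9, 1 and 0 counts in young and 4 and 10 in aged libraries), and in HFSC 0, where Chrna4 had the smallest (1.62, SE 0.854, edgeR adjusted p = 0.76). At 2 months 1 was called lower in EpdSC, beside 13.1% of all genes. It was Chrna9 (edgeR adjusted p = 0.000192), with 1 and 0 counts there against 68 and 146 in the young HFSC libraries. At 24 months Chrna9 was again lower in EpdSC (-3.15, SE 0.756, edgeR adjusted p = 0.00955), and Chrnb4 was higher (2.82, SE 0.794, edgeR adjusted p = 0.0224).

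Ly6e and Ly6a respond to interferons in other settings, and 30 interferon response genes, all of which passed the filter, were read beside them. This list was chosen with earlier results of these data known, so nothing is read from its counts. The part of interferons in the Ly6e and Ly6a levels was not tested. In aged against young HFSC 22 of the 30 were higher and 6 were called, all higher, beside 0.294% of all genes, with a median log2 difference of 0.79. Among the called were Sp100 (3.51, SE 0.409, edgeR adjusted p = 0.0089), a nuclear body protein, Gbp2 (1.89, SE 0.246, edgeR adjusted p = 0.0118), an interferon-induced GTPase, Irf1 (1.09, SE 0.183, edgeR adjusted p = 0.0363), a transcription factor, and B2m (1.52, SE 0.257, edgeR adjusted p = 0.0363), the light chain of class I molecules. In EpdSC edgeR called none with age, 1 had an unadjusted p under 0.05 (Sp100, 1.86, SE 0.376, edgeR adjusted p = 0.176) and DESeq2 called 1. Between the populations 14 were called higher in EpdSC at 2 months, beside 13.0% of all genes, and 12 higher and 1 lower at 24 months, beside 12.2% and 11.9%. Nlrc5, the activator of class I genes, stood 3.62 higher at 2 months (SE 0.217, edgeR adjusted p = 2.8e-07) and 2.32 higher at 24 months (SE 0.204, edgeR adjusted p = 6.57e-06). Psmb8, an immunoproteasome subunit, stood 3.30 (SE 0.309, edgeR adjusted p = 9.54e-06) and 1.82 higher (SE 0.284, edgeR adjusted p = 0.000548).

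Genes with the pattern most like each of 3 members were sought among 10774 genes over the 8 libraries, by the root mean square difference of log2 CPM centred on each gene's mean. Nearest to Ly6e were Slc5a9 (0.404), Cyp17a1 (0.416), Atp10b (0.417) and Gbp2 (0.490). Slc5a9 averaged 0.475 and 2.52 CPM in HFSC of young and aged mice, and 5.35 and 5.63 CPM in EpdSC. The genes were picked for likeness over the same libraries, so a shared order of the groups follows from the search. Nearest to Ly6d were Clca3a2 (0.249), Hpgds (0.314), Skint1 (0.316) and Tmprss4 (0.393). Clca3a2 averaged 20.3 and 72.0 CPM in young and aged HFSC, and 1373 and 1645 CPM in young and aged EpdSC. Nearest to Ly6a were Il20ra (0.317), a cytokine receptor chain, Bmp3 (0.517) and Wnt3 (0.585), both secreted ligands, and Ppp2r2c (0.614). Il20ra averaged 0.858 and 1.96 CPM in HFSC of young and aged mice, and 231 and 169.8 CPM in EpdSC.

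Open chromatin was read as ATAC counts within 1000 bases of each start, in 1 library per group, so no test was run and the 95% intervals cover counting error only. At the Ly6e start HFSC had 77 counts in the young and 43 in the aged library, and EpdSC 432 and 311. These equal 2.94 and 5.22 CPM in HFSC and 11.6 and 13.6 CPM in EpdSC, scaled to each library's total. Ly6e thus stood highest in EpdSC and was higher in the aged than in the young HFSC library. The log2 ratio of aged to young HFSC was 0.83 (interval 0.25 to 1.38), at the 94.6th percentile of 16622 promoters, whose median was -0.71 in this pair. Scaled to counts over all promoters, the Ly6e ratio was 1.67 and the median 0.12. Windows of 500 and 2000 bases to each side gave 0.62 and 0.86, and the gene's other end, tried after seeing the data, 0.55. In EpdSC the aged to young ratio was 0.23 (interval 0.01 to 0.44).

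At the Ly6d end with more counts, the 4 libraries held 3.02 (young HFSC), 2.30 (aged HFSC), 22.3 (young EpdSC) and 22.1 (aged EpdSC) CPM. The log2 ratio of aged to young HFSC was -0.36 (interval -1.20 to 0.35, 79 and 19 counts), against 0.47 at the gene's other end and 0.47 scaled to promoter counts, so no direction can be read. At Ly6g6c the values were 4.81, 3.40, 8.92 and 8.11 in the same order, and the HFSC age ratio was -0.48 (interval -1.15 to 0.10), at the 65.1th percentile of promoters. With 500 bases to each side that ratio was 1.03, with 2000 bases -0.99 and scaled to promoter counts 0.35. The aged HFSC library therefore gives no stable direction for Ly6d or Ly6g6c. For Ly6e the ratio was above 0 in each setting tried, but all of them reuse this 1 library. The part of its low share of counts in promoters (10.8%) in the Ly6e ratio was not tested.

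Of 7 members with at least 20 counts, none was past 2-fold higher in aged HFSC, beside 3.9% of promoters, and the lowest was Lypd3 at -0.77. Scaled to promoter counts, Ly6e (1.67) and Ly6k (1.54) were past 2-fold higher. Ly6k had 16 and 8 counts and a ratio of -2.30 at its other gene end, so its direction depends on which end is the start. In EpdSC none of 9 was past 2-fold in either direction, beside 4.5% of promoters, on either scale. Ly6a had 4 and 2 counts in young and aged HFSC against 264 and 139 in young and aged EpdSC. Ly6c1 had 4 and 3 against 53 and 44. Ly6c2, which had 0 to 6 RNA counts, held 0, 1, 8 and 3 counts, and the 0 in young HFSC allows up to 0.115 CPM. EpdSC against HFSC at 2 months was past 2-fold higher at 7 of 9 members, beside 9.64% of promoters. Log2 ratios ran from 5.37 at Ly6a and 3.06 at Ly6c1 to 0.58 at Lynx1, with 2.87 at Ly6d and 1.97 at Ly6e. Ly6a, a gate gene, and Ly6c1 reached 20 counts only through EpdSC. For 6 members the start was the gene end with more counts over the 4 libraries, so the count depends on that choice. At the other end Ly6e was at 0.94, Slurp1 at 0.57 and Ly6k at -1.31. Lynx1 (1.31), Ly6a (2.66) and Ly6d (3.41) were past 2-fold higher there. At 24 months 8 of 9 were past 2-fold higher, beside 45.0% of promoters, in a pair whose median promoter ratio was 0.94. At the other gene end Ly6e was at 0.11 and Slurp1 at 0.05 in this pair, with Ly6a at 1.93 and Ly6d at 3.0. Scaled to promoter counts, 3 of 9 were past 2-fold higher, Ly6a (3.35), Ly6d (2.24) and Ly6c1 (1.21). On that scale Lypd3 was at 0.98, Slurp1 at 0.60, Ly6e at 0.39, Lynx1 at 0.27, Ly6g6c at 0.26 and Ly6k at -0.57. Unscaled, Ly6d (3.22, 99.6th percentile), Ly6a (4.33, 99.9th) and Ly6c1 (2.19, 96.8th) lay far above that median, while Ly6e (1.36, 78.5th) and Ly6g6c (1.23, 71.4th) lay nearer to it.

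**Figure D3:**
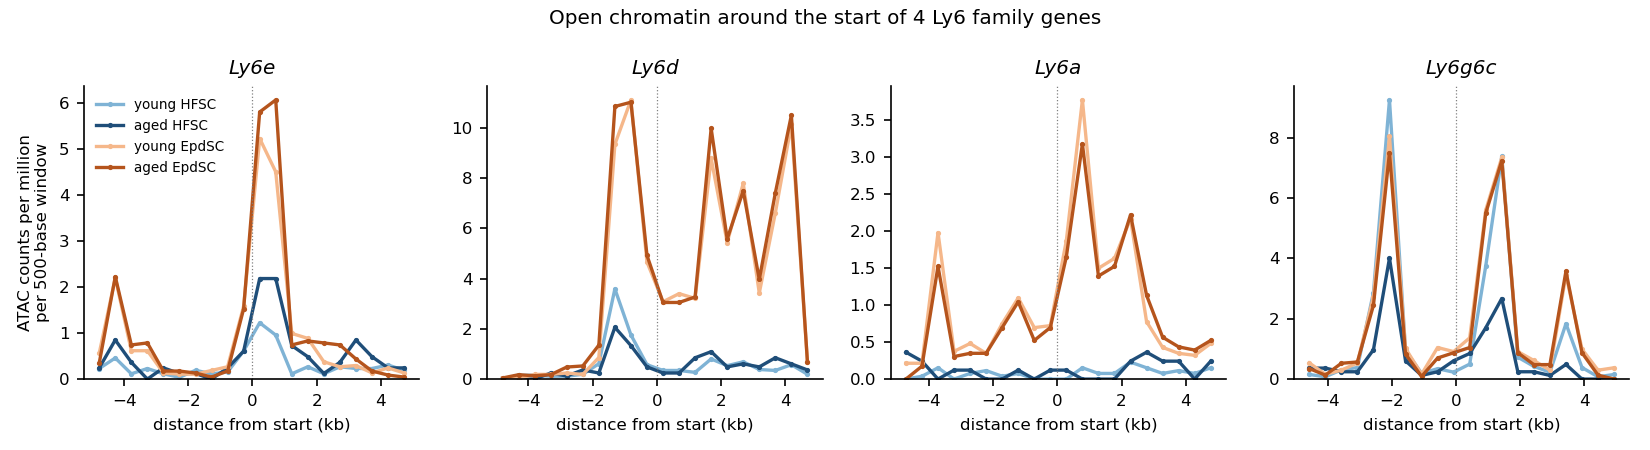
ATAC CPM in 500-base windows (vertical axis, from 0) against distance from the start in kb (horizontal axis) for 4 members, with 1 line per library. At Ly6e the window just inside the start holds 1.22 and 2.18 CPM in HFSC of young and aged mice, and 5.22 and 5.80 in EpdSC. Starts of Ly6e, Ly6d and Ly6a are the gene end with more counts.

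The 10x libraries placed the members in cell classes. Cells were clustered without the Ly6 family genes, and classes were named from fixed markers as bulge-like, upper hair follicle-like, suprabasal-like, dividing-like and sebaceous-like. Clusters whose markers did not name them keep a number. Levels are CPM of UMIs, a gene's UMIs scaled to all UMIs of that class and library. With 1 library per age no test was run, intervals cover counting error only, and free RNA in barcodes of 5 to 100 UMIs is given as a measure of background.

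In the 346 young and 329 aged bulge-like cells, Ly6e had 36 UMIs (38.5 CPM) in the young and 102 UMIs (193 CPM) in the aged library, a log2 ratio of 2.31 (interval 1.76 to 2.91). That is the 99.8th percentile of 6789 genes in these cells. Ly6d went from 361 to 980 CPM (1.44, interval 1.24 to 1.64, 99.1th percentile). With cells thinned to equal depth the Ly6e log2 ratio was 3.05, and with coarser clusters 1.89. These 2 of 5 members with enough UMIs were past 2-fold higher, beside 3.62% of genes. Ly6a had 35 and 38 UMIs (37.5 and 71.8 CPM, 0.94, interval 0.24 to 1.64), at both ages under its free RNA level of 411 and 410 CPM. Ly6g6c, in contrast to the bulk HFSC libraries, had 22 and 12 UMIs (23.5 and 22.7 CPM, -0.03, interval -1.20 to 1.02). Lypd3 stood at 50.3 and 32.1 CPM (-0.62, interval -1.54 to 0.18).

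A Ly6e UMI was found in 8.67% of young and 22.8% of aged bulge-like cells, at median depths of 2458 and 1389 UMIs. With each cell thinned to 1500 UMIs, which left out 35 young and 206 aged cells, the shares were 2.89% (9 of 311 cells, exact binomial interval 1.33% to 5.42%) and 21.1% (26 of 123 cells, 14.3% to 29.4%). In suprabasal-like cells the thinned shares were 9.94% and 10.0%, at median depths of 5506 and 3071 UMIs. No class here is known to lack Ly6e, and the suprabasal-like share is the lowest of the other named classes. The young bulge-like share was below it and the aged one was above it. Since the suprabasal-like class is not known to lack Ly6e, neither presence nor absence is read from the young share. The bulk young HFSC libraries held 281 and 224 Ly6e counts. Free RNA held 172 and 200 Ly6e CPM in the young and aged libraries, so the aged bulge-like level was close to it and the young level well under it, and its part in the Ly6e difference was not tested. In bulge-like cells there were 10.7 and 19.7 Ly6e UMIs per 100 Ly6d UMIs in the young and aged libraries, against 5.67 and 4.26 in free RNA. For Ly6d the free RNA held 3030 and 4690 CPM, above the bulge-like level at both ages, and the part of free RNA in the bulge-like Ly6d difference was not tested.

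Cluster 7, led by Fam13a, Cldn10 and Mfap2 (72 young and 262 aged cells), also held both genes at higher levels in the aged library, 153 and 358 CPM for Ly6e (log2 ratio 1.22, interval 0.79 to 1.68) and 235 and 1400 for Ly6d (2.57, interval 2.25 to 2.91). These were 2 of 3 members past 2-fold higher there, beside 8.71% of genes. Both cluster 7 levels of Ly6d lay under its free RNA (3030 and 4690 CPM), whose part in the difference was not tested. Cluster 9, with Tm4sf1, Cldn8 and Gata6 among its leading genes, had the highest Ly6e level of any cluster in both libraries, 394 and 496 CPM, and Ly6a at 81.0 and 204 CPM (1.33, interval 0.89 to 1.79), the 1 of 5 members past 2-fold higher, beside 3.63% of genes. Ly6a stood high in cluster 0, led by H2-M2, Cbr2 and Smoc2, with 661 and 628 CPM, and in cluster 8, led by Atf3, Cyr61 and Zfp36, with 542 and 655. It was low in cluster 7, the bulge-like, the sebaceous-like and the upper hair follicle-like cells at 26.4 to 71.8 CPM. Free RNA held 411 and 410 Ly6a CPM in the young and aged libraries, under the levels in clusters 0 and 8. Both cluster 9 levels of Ly6a lay under it, and its part in the Ly6a difference there was not tested. Ly6c1 was likewise at 55.2 and 50.9 CPM in cluster 0 and at 3.21 and 7.55 in bulge-like cells.

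Ly6d had a UMI in 34.1% of young and 41.0% of aged bulge-like cells, and in at least 84.1% of cells in the other 4 named classes at either age. Upper hair follicle-like cells held 6050 and 6460 CPM in the young and aged libraries, and 402 of 402 young and 144 of 144 aged cells had a UMI. Suprabasal-like cells held 4320 and 7000 CPM (log2 ratio 0.70), with clusters 2 (mostly young) and 5 (mostly aged) each near that ratio at 0.68 and 0.64. Dividing-like cells held 2810 and 4070 and sebaceous-like cells 1140 and 1970 CPM. Across all cells Ly6d was at 2720 and 3970 CPM, and free RNA moved the same way, so the part of free RNA in these differences was not tested.

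Ly6g6c was concentrated in upper hair follicle-like cells, at 1270 and 1080 CPM, and in suprabasal-like cells, at 717 and 400. The suprabasal-like difference (-0.84, interval -0.96 to -0.73) moved with cluster make-up. Cluster 2 held 791 and 738 CPM (-0.10), and cluster 5, which had 64 young and 426 aged cells, held 81.3 and 86.0. In the other named classes and in clusters 0, 6, 7, 8 and 9 Ly6g6c was at 5.28 to 73.9 CPM, under its free RNA level of 305 and 143.

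Lypd3 followed the same classes, at 340 and 336 CPM in upper hair follicle-like and 359 and 406 in suprabasal-like cells. Free RNA held 136 and 155 CPM, above the levels in the other classes. In dividing-like cells, most of them in cluster 12 in the young and cluster 11 in the aged library, Lypd3 was at 47.6 and 112 CPM (1.23, interval 0.79 to 1.69), the 1 of 6 members past 2-fold higher there, with Ly6c1 the 1 past 2-fold lower (24.5 and 10.9 CPM), beside 5.63% of genes in either direction. Ly6c1 was also the 1 of 6 past 2-fold in suprabasal-like cells (32.0 and 14.0 CPM), beside 5.43% of genes. No member of 5 passed it in upper hair follicle-like cells, beside 10.5% of genes, nor of 3 in sebaceous-like cells, beside 8.71%. In coarser clusters, however, the upper hair follicle-like log2 ratio was -1.31 for Ly6g6c, 1.07 for Ly6e and 1.40 for Ly6a, so values in that class depend on where its border lies. In cluster 0 Lypd3 was past 2-fold higher (41.4 and 86.7 CPM, beside 6.37% of genes), and in cluster 6, led by Sostdc1 and Vsnl1, Ly6c1 was (13.1 and 30.9, beside 3.98%). Ly6k had 16 and 36 UMIs, Lynx1 39 and 19, Slurp1 8 and 7, and Ly6c2 7 and 3 in all young and all aged cells, too few to place them in a class.

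**Figure D4:**
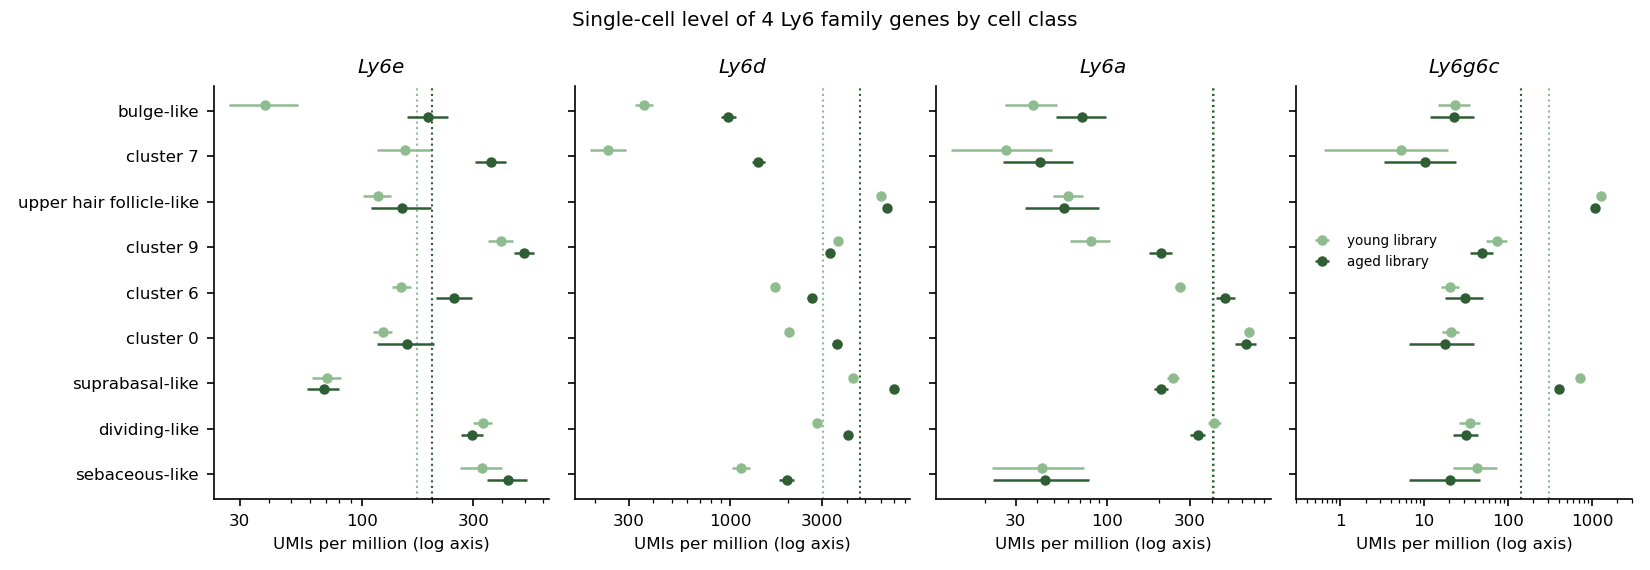
CPM of UMIs (horizontal log axis) of 4 members in 9 groups of cells, with 95% counting intervals, in the young and aged 10x libraries. Dotted lines mark free RNA in each library. Ly6e in bulge-like cells lies at 38.5 in the young and 193 in the aged library, whereas in suprabasal-like cells it lies at 71.0 and 68.7.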

How the data were processed

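The authors deposited whole-number read counts per gene for RNA-seq, counts per 500-base window for ATAC-seq and UMI counts per barcode for 10x, none of them normalized. The submitters' processing notes name STAR, Bowtie, Cell Ranger and mm10 without versions or roles. The sources used here do not give the strand setting, annotation release, duplicate removal or read shifting, so a gene and an antisense partner cannot be told apart.

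RNA counts were fitted with edgeR 4.0.16 in R 4.3.3 (trimmed mean of M values, filterByExpr, quasi-likelihood test, 1 fit of all 8 libraries). It tested 21464 genes with Benjamini-Hochberg adjustment over all of them, called under 0.05, after a test on simulated data. DESeq2 1.42.0 was an alternative. The members and lists were chosen with earlier results of these data known. All members are named, with up to 4 called genes of each list per comparison, or the 2 with the smallest p where none was called.

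ATAC counts used non-overlapping windows, 5461743 of 10923515, without the mitochondrial genome. Starts came from the RefSeq promoter table (GRCm38.p6) for 4 members, and otherwise from the gene end with more counts, since no strand was at hand. Log2 ratios used a pseudocount of 0.5 and at least 20 counts per pair.

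In 10x, barcodes with at least 500 genes, at most 10% mitochondrial UMIs and at least 1049 (young) or 682 (aged) UMIs were kept, the last being 10% of the 99th percentile among the top 4000 barcodes, the number of captured cells the labels name. Clustering used scanpy 1.11.5 (2000 variable genes, 30 components, Leiden resolution 1), and a ratio needed 30 cells in each library.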

Additional observations from a re-analysis of the deposited data

Results flagged for a closer look

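The fitted age effect of Ly6e was 2.69 higher on the log2 scale in HFSC than in EpdSC (SE 0.273). Both mean levels were higher in aged mice, by 3.09 in HFSC and 0.39 in EpdSC on that scale. It is listed here because edgeR called the difference. The gene was selected with this result known, so the value is a description, and the call supports nothing. Groups of 2 libraries are too small for a check of single outlying libraries.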

How the results depend on the processing

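The counts of called genes moved most. For age in HFSC 79 genes were called, against 387 with DESeq2, 662 with no filter, 52 at 1 CPM, 9 in a fit of 4 libraries and 160 under a replicate block. For age in EpdSC 18 were called, against 85 with DESeq2, 239 with no filter, 10 at 1 CPM, 11 without a composition factor and 3 in a fit of 4 libraries. For the difference between the age effects 1 was called, against 94 with DESeq2, 285 with no filter and 3 with the block. The cause was not tested. Replicate numbers do not pair the samples (correlations of deviations between -0.213 and 0.174), and the block changed no call of a member.

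Without 1 library the counts ran from 12 to 161 for age in HFSC (12 without aged HFSC replicate 2, and 124 to 161 without aged HFSC replicate 1, young HFSC replicate 2 or either young EpdSC library), 6 to 31 for age in EpdSC (6 without aged EpdSC replicate 2, 31 without young HFSC replicate 2), 3668 to 5771 between the populations at 2 months (3668 without young EpdSC replicate 1), 3606 to 5392 at 24 months, and 0 to 63 for the difference (0 without aged EpdSC replicate 2, 63 without young HFSC replicate 2). The lone library of a group was then assumed to vary like the others.

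Without 1 library, signs turned only for values that were not called. Members were selected on age in HFSC, so kept signs of called values there and in the difference between the age effects are no support. Ranges for age in HFSC were -0.19 to 2.61 (Ly6c1), -0.19 to 0.55 (Lynx1) and -1.25 to 1.28 (Lypd3). For age in EpdSC they were -0.41 to 0.27 (Ly6a), -0.54 to 0.42 (Ly6c1), -0.047 to 0.15 (Ly6g6c), -0.18 to 1.14 (Lypd3) and -0.013 to 0.73 (Slurp1). For the difference between the age effects they were -0.077 to 2.72 (Ly6c1), -0.41 to 0.34 (Lynx1) and -1.62 to 0.95 (Lypd3). Between the populations they were -0.25 to 2.36 (Lypd3, 2 months) and -1.03 to 0.16 (Slurp1, 24 months). At the other gene end, an alternative chosen after seeing the data, the Ly6k promoter ratio at 2 months was -1.31 in place of 1.04. Of the 10x ratios recomputed 148 stayed within their counting interval and 29 did not, and none that was past 2-fold turned sign. Low depth limits Slurp1, Ly6k and Ly6c2 in all assays, and the 10x bulge-like values for members other than Ly6d. These include Ly6e, which had 36 UMIs in the young bulge-like cells.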
